A study of Mus musculus with 2 samples.

Results

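The guanylate-binding proteins described here are the 10 mouse genes Gbp2 to Gbp11. They were taken from the count table by gene symbol, and all 10 had a row among its 24421 rows. The family was selected on its counts in the same 2 libraries that are compared below, so each ratio between the libraries is given as a description and none is tested. The libraries came from ovaries of C57BL/6J mice aged 8 weeks, 1 from the wild type and 1 from the H19 knockout (genotype H19KO, allele H19(Δ3)), and no treatment was given to either. H19 is an imprinted long noncoding RNA, and the series set out to find ovarian genes that it regulates. The sources used here do not give the number of animals behind each library. With 1 library per genotype there was no replicate check, and every interval below is an exact 95% interval that covers counting error only. The wild-type library held 23335131 counts and the H19KO library 23041225. H19 itself had 672 counts in the wild-type library and none in the other, which fits the genotype labels.

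Guanylate-binding proteins are large GTPases of the dynamin superfamily, with atlastins among their closest structural relatives. Interferon gamma is their main inducer: it signals through its receptor and the kinases JAK1 and JAK2 to gene promoters with GAS elements, and it raises the transcription factor IRF1, which binds interferon-stimulated response elements (ISRE). Inside infected cells the proteins coat bacteria, and also vacuoles that hold pathogens. The coating of vacuoles needs the ATG8 conjugation proteins of autophagy. Guanylate-binding proteins also promote inflammasome activation. Gbp2 and Gbp5 carry a C-terminal prenylation signal that anchors them to membranes.

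In GENCODE M21 (GRCm38, the same assembly as mm10) the family occupied a pair of clusters. Gbp2, Gbp3, Gbp5 and Gbp7 lay on the plus strand of chromosome 3 between 142493978 and 142638008, a span of 144 kb. Gbp4, Gbp6, Gbp8, Gbp9, Gbp10 and Gbp11 lay on the minus strand of chromosome 5 between 105014150 and 105346472, a span of 332 kb. All were annotated as protein-coding except Gbp11, a polymorphic pseudogene. The chromosome 3 cluster also holds Gbp2b, which is outside the chosen genes.

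Promoter windows of 300 bases, from 250 before to 50 after the RefSeq start (GRCm38.p6), were matched for 4 of the 10 genes: Gbp2, Gbp3, Gbp5 and Gbp7. None was used here for Gbp4, Gbp6, Gbp8, Gbp9, Gbp10 and Gbp11. All 4 genes held the core of an ISRE upstream of the RefSeq start, here GAAA, then 2 bases of any kind, then GAAA, searched on both strands. The stretches around it are printed 5′ to 3′ because the 4 genes were higher together in the knockout library, with the match in capitals; on the printed strand it reads as its reverse complement.
Gbp2, chr3:142620579-142620628, plus strand: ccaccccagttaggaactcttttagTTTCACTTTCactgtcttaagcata
Gbp3, chr3:142559974-142560029, plus strand: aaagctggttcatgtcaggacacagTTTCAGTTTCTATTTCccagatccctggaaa
Gbp7, chr3:142530258-142530307, plus strand: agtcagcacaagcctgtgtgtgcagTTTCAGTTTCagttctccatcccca
Gbp5, chr3:142496744-142496793, plus strand: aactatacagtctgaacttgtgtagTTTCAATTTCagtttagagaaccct
The match began 59 bases before the RefSeq start in Gbp2, 53 in Gbp7 and 165 in Gbp5. Gbp3 had 2 overlapping matches, which began 45 and 39 bases before it, and a further window at another start of Gbp3 had none. In GENCODE the last 27 of the bases printed for Gbp2 and the last 4 of those for Gbp3 already lie in an exon. The Gbp2 match lies wholly in that exon. The Gbp5 match lies outside exons but within the GENCODE gene, which begins at 142493978. For these genes the match is thus downstream of the GENCODE start. Of all 32851 windows in the RefSeq table, 3.44% held such a match. The GAS core TTCNNNGAA was found in 8.30% of all windows and in those of Gbp5 and Gbp7, with 2 matches in each and no overlap with the ISRE match. A match of letters is a description of the window and not evidence of binding.

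Coding sequences were far more alike within the chromosome 5 cluster than within that of chromosome 3. Over aligned bases, the 15 pairs on chromosome 5 were 89.6 to 98.4% identical, with a median of 91.7%. The 6 pairs on chromosome 3 were 61.4 to 78.3% identical (median 62.4%), the closest being Gbp3 and Gbp7. The 24 pairs between the clusters were 60.4 to 76.4% identical. The first 60 coding bases show the likeness, which bears on how reads could be assigned to each gene; capitals mark bases that differ from Gbp6, position by position without gaps.
Gbp6, chr5:105290961-105291020, minus strand: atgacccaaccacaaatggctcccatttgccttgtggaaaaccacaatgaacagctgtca
Gbp10, chr5:105236075-105236134, minus strand: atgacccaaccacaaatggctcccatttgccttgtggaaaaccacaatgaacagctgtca
Gbp4, chr5:105136962-105137021, minus strand: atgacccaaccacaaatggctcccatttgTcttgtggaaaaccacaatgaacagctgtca
Gbp9, chr5:105105788-105105847, minus strand: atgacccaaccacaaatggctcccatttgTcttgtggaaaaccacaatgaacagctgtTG
Gbp8, chr5:105050988-105051047, minus strand: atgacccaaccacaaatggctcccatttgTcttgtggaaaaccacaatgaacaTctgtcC
Gbp11, chr5:105343870-105343929, minus strand: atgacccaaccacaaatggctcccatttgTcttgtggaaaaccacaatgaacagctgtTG
Gbp2, chr3:142623694-142623753, plus strand: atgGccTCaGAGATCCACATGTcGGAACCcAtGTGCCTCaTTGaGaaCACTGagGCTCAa
Gbp10 matched Gbp6 at all 60 positions, Gbp4 differed at 1, Gbp8, Gbp9 and Gbp11 at 3 each and Gbp2 at 44. Of all windows of 76 bases (the read length) in annotated transcripts, 77.6% of those of Gbp10 and 67.2% of those of Gbp6 were also found exactly in another gene. These were mainly Gm43302, an overlapping gene model whose coding sequence was 99.9% identical to that of Gbp6, and each other. The share was 11.2% for Gbp7, because of the pseudogene Gm43802 inside it, 7.87% for Gbp8 and 0.535 to 3.47% for Gbp2, Gbp3, Gbp4, Gbp5 and Gbp9. For Gbp11 it was 262 of 2617 windows. The sources used here do not say how such reads were counted, and the division of reads between Gbp6 and Gbp10 is uncertain. Gbp4, Gbp8 and Gbp9 overlap on the same strand but share only 0.814 to 1.77% of their exon bases.

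All 10 genes had more counts in the H19KO library than in the wild-type library. Of the 10, 9 had a mean of at least 1 CPM (counts scaled for library size by TMM) and are called measured, and all 9 had an interval wholly above 2-fold. Of all 13928 measured genes 85, or 0.610%, lay above 2-fold by the same rule and 54, or 0.388%, lay below it. Because the family was chosen from this contrast, nothing is read from the members' count against that share. Gbp10 passed the minimum through its H19KO level alone, at 0.344 CPM in the wild type. In RNA from a whole tissue, more cells of a type and more RNA per cell cannot be told apart. The members' median log2 ratio (H19KO over wild type, with 0.5 added to each count) was 2.15, beside -0.01 for all measured genes, whose central 95% lay between -0.67 and 0.79.

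**Figure D1:**
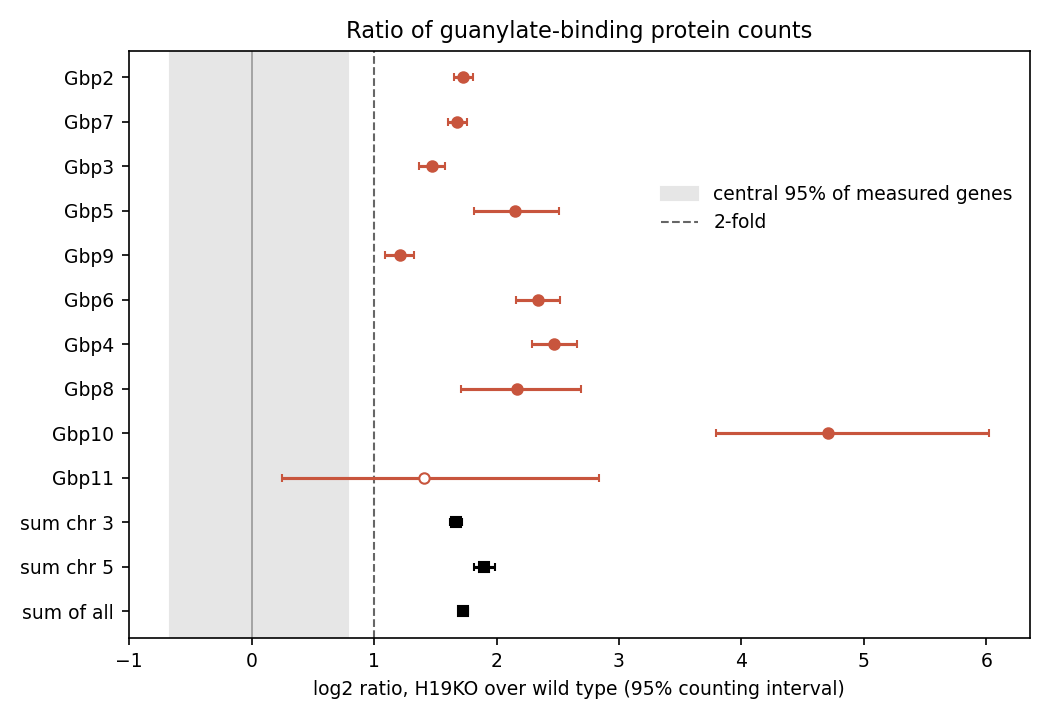
Log2 ratio of H19KO over wild-type counts for each of the 10 genes (circles, x axis) and for sums over each cluster and all genes (squares), with 95% counting intervals. Apart from Gbp11 (open circle, under 1 CPM), each interval lies to the right of the dashed 2-fold line and of the grey band that holds the central 95% of measured genes.

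On chromosome 3, Gbp2 was the gene with the most counts in the family. Gbp2, a prenylated GTPase that limits growth of the parasite Toxoplasma gondii, had 1698 counts in the wild-type library and 5603 in the H19KO library. Its level was 3.32-fold higher in the knockout (3.14 to 3.51), a log2 ratio of 1.73. Gbp7, which takes part in delivering oxidase and autophagy proteins to vacuoles of mycobacteria, had 1573 and 5004 counts, 3.20-fold higher (3.02 to 3.39). The ratios of Gbp2 and Gbp7 could not be separated by their intervals. Gbp3 had 984 and 2718 counts, 2.78-fold higher (2.58 to 2.99), and its interval lay below those of Gbp2 and Gbp7. Gbp5, a prenylated member that promotes assembly of the NLRP3 inflammasome, was much rarer, with 88 and 390 counts. Its ratio was 4.44-fold (3.53 to 5.68), above the intervals of Gbp2, Gbp3 and Gbp7. The abundant members of the cluster thus had the smaller ratios and the rare one the larger.

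On chromosome 5 the ratios were more spread. Gbp9 had 796 counts in the wild-type library and 1829 in the H19KO library, 2.31-fold higher (2.12 to 2.51). This was the smallest ratio among the measured members, and its interval, with a lower bound of 1.09 on the log2 scale, lay nearest to 2-fold. Gbp6 had 314 and 1581 counts, 5.06-fold higher (4.48 to 5.73). Gbp4 had 282 and 1557 counts, 5.54-fold higher (4.89 to 6.33). Gbp4 and Gbp6 overlapped each other, and their intervals lay above those of Gbp2, Gbp3, Gbp7 and Gbp9. Gbp8 had 44 and 199 counts, 4.51-fold higher (3.27 to 6.46), an interval too wide to separate it from Gbp2, Gbp4, Gbp5, Gbp6 or Gbp7.

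Gbp10 had the largest ratio and rested on the fewest wild-type reads. It had 8 counts in the wild-type library and 220 in the H19KO library, 26.1-fold higher with an interval of 13.8 to 64.9. Because its windows are largely shared with Gbp6, the counts of both were also added: the sum was 322 in the wild-type library against 1801 in the H19KO library, 5.62-fold higher (4.99 to 6.35). Any reads assigned to Gm43302 or left uncounted are not in this sum. Gbp11 had 8 wild-type counts as well, and 22 H19KO counts. At a mean of 0.648 CPM it stayed under the minimum, and its ratio of 2.66 had an interval from 1.19 to 7.18. Gbp2b, the family gene of chromosome 3 outside the chosen set, had 13 and 61 counts, 4.58-fold higher (2.56 to 9.36).

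Sums over a cluster do not depend on how reads were split among its members. They still depend on reads assigned to other genes, such as Gm43302 and Gm43802, or left uncounted because they were shared. The 4 genes of chromosome 3 had 4343 wild-type and 13715 H19KO counts, 3.18-fold higher (3.07 to 3.29). The 6 genes of chromosome 5 had 1452 and 5408 counts, 3.74-fold higher (3.53 to 3.97). The chromosome 5 interval lay above that of chromosome 3. Over all 10 genes the sum was 5795 counts (249.2 CPM) in the wild-type library and 19123 counts (827 CPM) in the H19KO library, a log2 ratio of 1.73 (1.69 to 1.77).

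**Figure D2:**
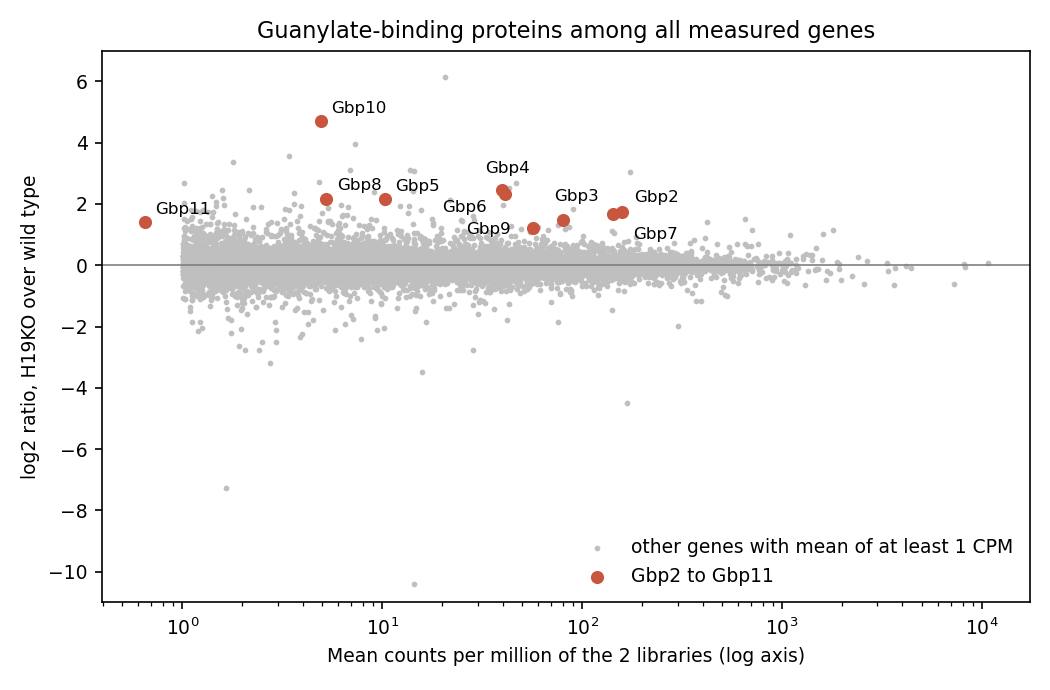
Log2 ratio of H19KO over wild type (y axis) against mean CPM of both libraries (x axis, log scale) for all measured genes (grey) and the 10 guanylate-binding proteins (red). The members range from a mean of 0.648 CPM for Gbp11 to 158 CPM for Gbp2, and each lies above 0.

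When the 13928 measured genes were ordered by log2 ratio from the highest, Gbp10 stood at place 2. Gbp4 stood at place 15, Gbp6 at 20, Gbp8 at 24 and Gbp5 at 25. The abundant members were lower in the order: Gbp2 at place 51, Gbp7 at 56, Gbp3 at 75 and Gbp9 at 125. These places describe the contrast that chose the family.

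The make-up of the family's counts differed between the libraries while its largest component stayed level. Gbp2 gave 29.3% of the family's counts in each library, with an interval of 28.1 to 30.5% in the wild type and 28.7 to 30.0% in the knockout. Gbp7 gave 27.1% and 26.2%, with overlapping intervals. Gbp9 made up 13.7% (12.9 to 14.6) of the wild-type counts and 9.56% (9.15 to 9.99) of the H19KO counts, and Gbp3 17.0% (16.02 to 18.0) and 14.2% (13.7 to 14.7). Gbp4 went the other way, from 4.87% (4.33 to 5.45) to 8.14% (7.76 to 8.54), as did Gbp6, from 5.42% (4.85 to 6.03) to 8.27% (7.88 to 8.67). Gbp10 made up 0.138% (0.0596 to 0.272) and 1.15% (1.00 to 1.31). The chromosome 5 cluster as a whole held 25.1% (23.9 to 26.2) of the wild-type counts and 28.3% (27.6 to 28.9) of the H19KO counts.

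**Figure D3:**
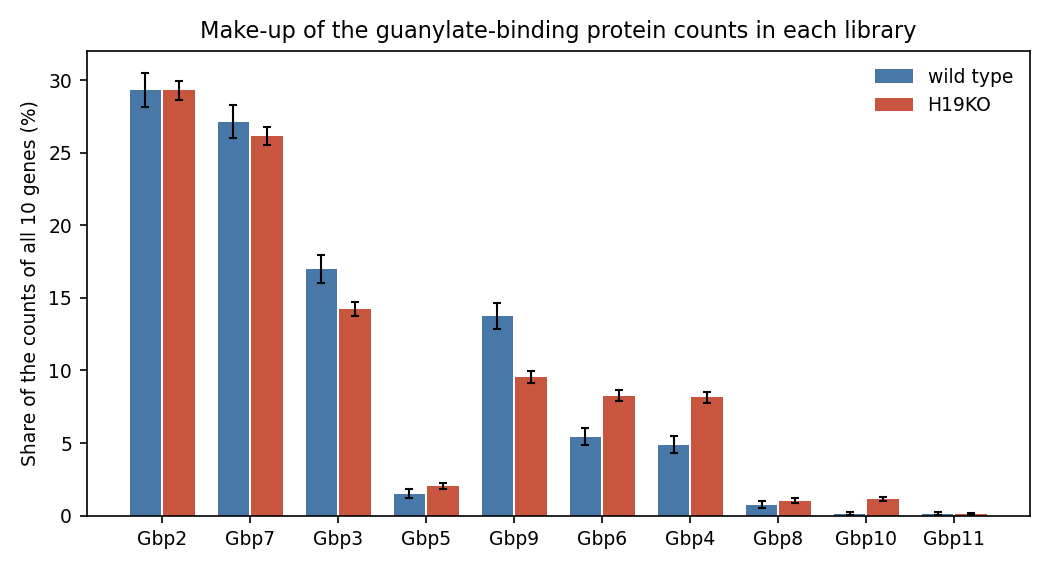
Share of the counts of all 10 genes (y axis, %) that each gene held in the wild-type (blue) and H19KO (red) library, with 95% exact binomial intervals. Gbp2 stands at 29.3% in both, Gbp3 and Gbp9 hold less of the H19KO counts, and Gbp4, Gbp6 and Gbp10 hold more.

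Levels were compared between genes as scaled CPM per kilobase of annotated exon. Gbp2 was the highest in both libraries, with a wild-type level of 29.0 (27.7 to 30.4) and an H19KO level of 96.3 (93.8 to 98.9). Gbp3 and Gbp7 followed, at 13.0 and 12.1 in the wild type with overlapping intervals. In the knockout Gbp7, at 38.5, stood just above Gbp3, whose interval was 34.7 to 37.4. Gbp9 was next in this order, at 6.62 and 15.3, then Gbp6, at 2.27 and 11.5, and Gbp4, at 1.62 and 8.99. The remaining 4 genes were low. Gbp5 and Gbp8 overlapped in both libraries on this length, at 0.570 and 0.550 in the wild type. Their knockout intervals were 2.30 to 2.81 for Gbp5 and 2.16 to 2.87 for Gbp8. Gbp10 and Gbp11 overlapped at the bottom of the wild-type order, at 0.0888 and 0.128. In the knockout Gbp10, at 2.46, overlapped Gbp5 and Gbp8, whereas Gbp11 was at 0.353. The choice of length moves some of these places: over the transcript with the longest coding sequence, Gbp7 came out above Gbp3 in both libraries (27.1 against 16.1 for the wild type, 86.7 against 44.7 for the knockout) and Gbp6 above Gbp9 in the knockout (26.3 against 18.1). On that length Gbp5 also stood apart from Gbp8 in the knockout, at 5.52 (4.99 to 6.10) against 3.4998 (3.03 to 4.02). For another length, all counts of a gene were divided by the exon bases that no other gene shares. Knockout Gbp10 was then at 4.57 (3.99 to 5.22), above Gbp5 and Gbp8. Any reads counted from shared bases would inflate that value, and whether they were counted is not known.

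**Figure D4:**
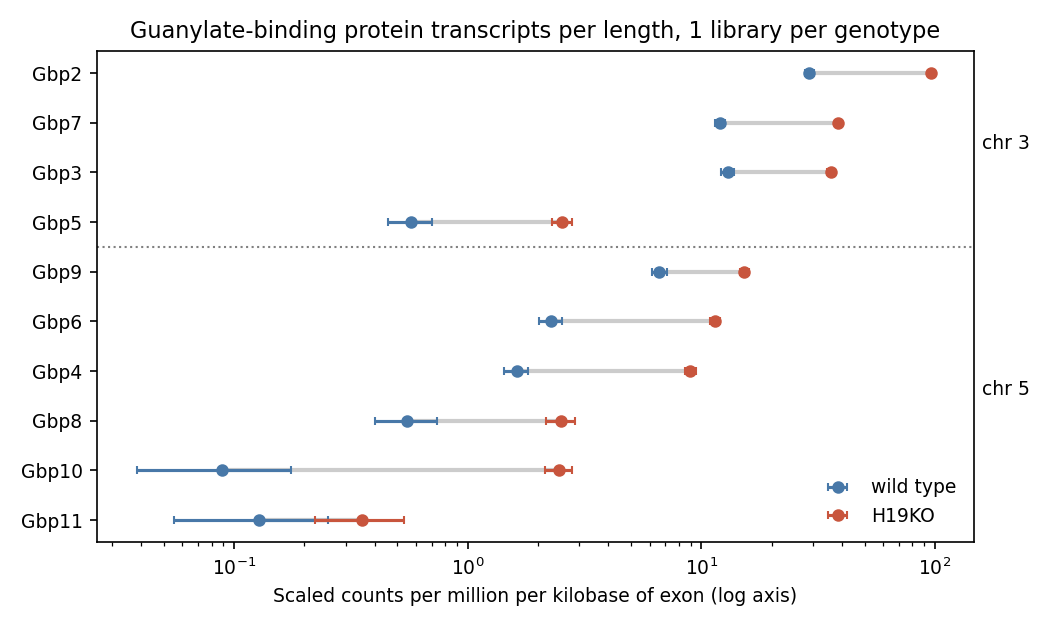
Level of each gene as scaled CPM per kilobase of exon (x axis, log scale) in the wild-type (blue) and H19KO (red) library, with 95% counting intervals and the chromosome 3 genes above the dotted line. The red point lies to the right of the blue one for every gene, and Gbp2 is the highest in both libraries, at 29.0 and 96.3.

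No measured gene that flanks the clusters lay beyond 2-fold. Of all measured genes only 0.610% lay above 2-fold and 0.388% below, so nothing is read from that count. Within 500 kb of the chromosome 3 cluster, 5 genes outside it were measured, with log2 ratios from -0.10 to 0.21. Around the chromosome 5 cluster there were 7, from -0.39 to 0.41. The nearest measured neighbours were the transaminase gene Kyat3, in the table as Ccbl2, with 303 and 281 counts, and the ABC transporter gene Abcg3, with 64 and 85. These neighbours were chosen by position after the data were seen.

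Lists of pathway genes were read by the same intervals. Over all measured genes 22.2% had an interval wholly above a ratio of 1 and 24.0% wholly below it, so an interval on either side of 1 is common at this depth. Only 0.610% lay above 2-fold and 0.388% below, so little is read from a short list with none beyond it. Of 11 interferon gamma signalling genes 10 were measured, 2 with an interval above 1, 1 below and 7 spanning it, with none beyond 2-fold, and the list's median log2 ratio was -0.03. The ligand gene Ifng had 1 wild-type and 2 H19KO counts. The receptor gene Ifngr1 stood at a log2 ratio of -0.11 (-0.23 to 0.01), its partner Ifngr2 at 0.02 (-0.07 to 0.11), and the kinase genes Jak1 and Jak2 at -0.03 (-0.06 to 0.01) and 0.02 (-0.06 to 0.10). The transcription factor gene Irf1, with 1037 and 1877 counts, stood at 0.86 (0.75 to 0.97), the highest measured ratio of the list. The phosphatase gene Ptpn11 stood at 0.07 (0.00 to 0.13), and the inhibitor gene Socs1 had 50 and 47 counts. Ifng, Ifngr1, Ifngr2, Irf1 and Socs1 were named after their values were seen, to cover each step of the pathway.

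The type I interferon list, whose receptor signals through STAT2 and IRF9 among others, had 8 of its 9 genes measured and a median of 0.24. Of these 6 had an interval above a ratio of 1, none below and none beyond 2-fold. The receptor gene Ifnar1 stood at a log2 ratio of 0.06 (0.01 to 0.12) and Ifnar2 at 0.33 (0.24 to 0.41). The transcription factor genes were spread more widely, with Irf3 at -0.07 (-0.17 to 0.02), Stat2 at 0.54 (0.44 to 0.64) and Irf7, the highest of the list, at 0.97 (0.80 to 1.14) from 436 and 848 counts. The ligand gene Ifnb1 had 0 counts in both libraries, which allows up to 3 counts in each, or 0.129 CPM for the wild type and 0.130 CPM for the knockout.

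Genes that act with or after the guanylate-binding proteins in inflammasome activation had a median of 0.51 over 9 measured genes of 10. Of the 9, 6 had an interval above a ratio of 1 and 3 spanned it. Gm12250, the gene of the immunity-related GTPase IRGB10, was the 1 member beyond 2-fold, with 70 and 597 counts. The pore-forming protein gene Gsdmd stood at 0.44 (0.23 to 0.65) from 332 and 448 counts, and the cytokine gene Il18 at 0.72 (0.41 to 1.05) from 132 and 217. Il1b had only 12 and 13 counts. Stat2, Irf7, Ifnb1 and Il1b were named after their values were seen.

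Genes of prenylation and of ATG8 conjugation lay close to equality. The prenylation list covers the process in general and not only enzymes that act on this family. The 8 prenylation genes had log2 ratios from -0.25 to 0.15 with a median of -0.00, and the 10 ATG8 conjugation genes from -0.12 to 0.16 with a median of 0.02. None of either list was beyond 2-fold. The transferase subunit genes Fnta and Rabggtb and the escort protein gene Chm stood at 0.15, 0.14 and 0.12. The ATG8 family genes Map1lc3b, Gabarap and Gabarapl1 stood at 0.04, -0.04 and 0.16. The 12 other GTPases of the dynamin superfamily had a median of 0.05 and none beyond 2-fold. Among them the mitochondrial fission gene Dnm1l stood at -0.01 (-0.08 to 0.05). The atlastin gene Atl3 stood at 0.20 (0.14 to 0.25) from 4691 and 5351 counts, and the mitochondrial fusion gene Opa1 at -0.14 (-0.21 to -0.06) from 3163 and 2863. The largest ratio of the 12, singled out after its value was seen, was that of the interferon-inducible Mx1, at 0.63 (0.04 to 1.25) from 40 and 62 counts. The other Mx gene of the list, Mx2, also named after its value was seen, stood at 0.08 (-0.39 to 0.55) from 77 and 81.

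**Figure D5:**
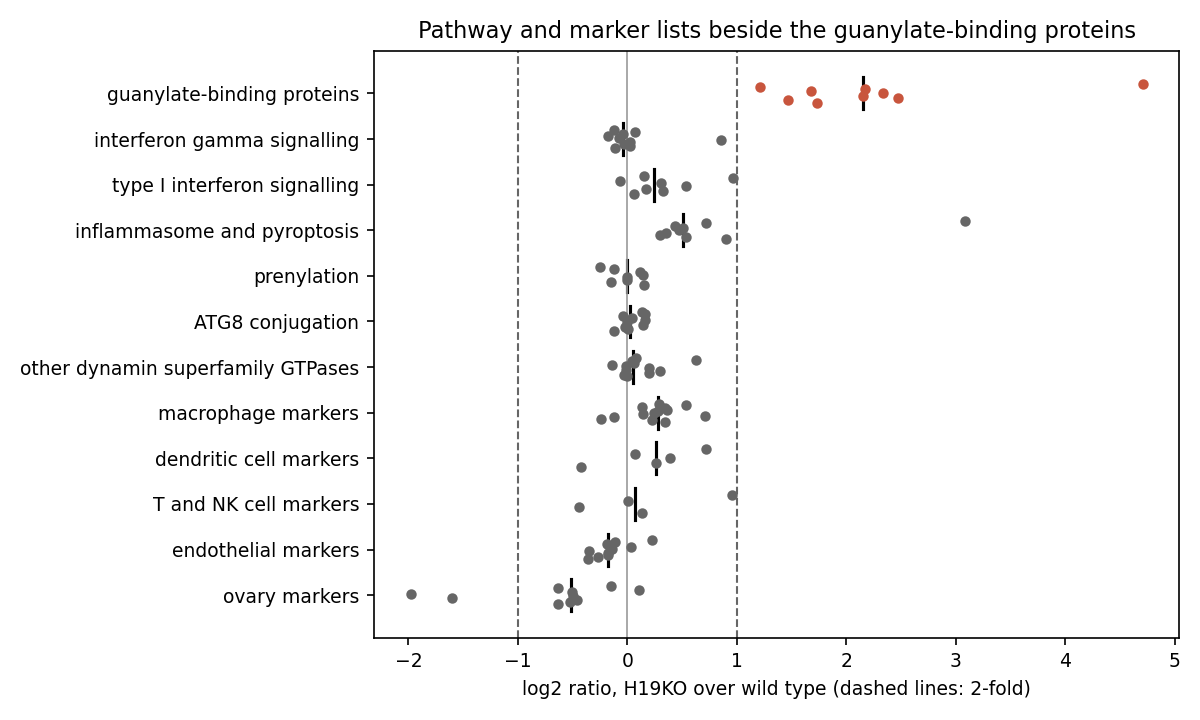
Log2 ratio of H19KO over wild type (x axis) for each measured gene of the guanylate-binding proteins (red) and of the pathway and marker lists (grey, 1 row each), with list medians as black bars and 2-fold as dashed lines. The guanylate-binding proteins run from 1.21 to 4.71, while no median of another list exceeds 0.51.

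The 5 genes outside the family whose log2 ratio lay nearest to that of the summed family, over these 2 libraries, were Asb11, D130043K22Rik, Loxl4, H2-Q5 and Gm4951. Their differences from the family's log2 ratio were between -0.025 and 0.020. Their counting intervals were far wider than that, from 1.44 to 1.99 for Gm4951 and from 0.85 to 2.78 for Asb11. Asb11, D130043K22Rik and H2-Q5, with 13, 15 and 14 wild-type counts, reached the minimum of 1 CPM through their H19KO level alone. Gm4951 had the most counts, 147 and 478, and Asb11 the fewest in the wild type, 13 and 44. With 2 libraries such likeness is that of a single ratio.

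Markers of the tissue and of other cells were read as log2 ratios. Their intervals were counted against a ratio of 1, not a log2 ratio of 1. Over all measured genes 22.2% had an interval above a ratio of 1 and 24.0% below it. All 10 ovary markers were measured in both libraries. Their summed level was 4426 CPM for the wild type against 3578 for the knockout, with 9 of 10 intervals below 1. The steroid-synthesis genes Cyp17a1 and Cyp19a1, at -1.98 and -1.60, were the 2 members beyond 2-fold. Star stood at 0.11, Inha at -0.50 and Lhcgr at -0.51. Macrophage markers were modestly higher in the knockout: 10 of 13 had an interval above a ratio of 1, 1 below and none beyond 2-fold. They summed to 605.6 and 745.7 CPM. The lysozyme gene Lyz2 stood at 0.54, and the complement genes C1qa and C1qb at 0.36 and 0.34. The marker with its interval below was Csf1r, at -0.24 (-0.35 to -0.13) from 1451 and 1223 counts. Dendritic cell markers summed to 28.2 and 32.7 CPM, with 1 of 5 intervals above a ratio of 1 and 4 spanning it. Zbtb46 stood at 0.26 (0.07 to 0.45), Xcr1 at 0.39 (-0.23 to 1.04) and Itgax at 0.07 (-0.30 to 0.43). Flt3 went the other way, at -0.42 (-1.15 to 0.27) from 42 and 31 counts. T and NK cell markers, the cells that make most interferon gamma, summed to 15.1 and 15.8 CPM, with 4 of 12 measured, 1 interval above 1, 1 below and a median of 0.07. The granzyme gene Gzmb stood at 0.96 (0.20 to 1.79) from 22 and 43 counts and the co-receptor gene Cd4 at -0.44 (-0.84 to -0.04) from 127 and 93. The kinase gene Lck had 83 counts in each library. Neutrophil markers summed to 1.51 and 0.649 CPM with none measured, and Elane had 0 counts in both. Csf1r, Flt3, Cldn5 and Elane were named after their values were seen. Endothelial markers summed to 803 and 701 CPM, with 7 of 10 intervals below a ratio of 1, 1 above and 2 spanning it. Pecam1 stood at -0.36, Cdh5 at -0.27 and Kdr at -0.18, whereas Cldn5 stood at 0.23 (0.09 to 0.37) from 785 and 915 counts. Of the measured blood and endothelial cell markers none lay beyond 2-fold. Since only 0.610% of all measured genes lay above 2-fold and 0.388% below, nothing is read from that count. The rule could not reach most T and NK markers or any neutrophil marker, which were not measured. The part of cell composition in the family's ratios was not tested.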

How the data were processed

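The deposited values are whole-number counts per gene symbol made by the authors for 2 ovary libraries, 1 per genotype. Per the labels' protocols, ribosomal RNA was depleted and stranded libraries were read with paired ends of 76 cycles. The submitters' processing notes list STAR 2.5.0a, Cufflinks 2.2.1, DESeq2 1.0.0 and mm10 without roles. How reads were counted, with which annotation and strand setting, is not given in the sources used here, and rescaling before deposit, which would carry into the ratios and intervals, was not tested. Antisense reads therefore cannot be told apart; Mir6381, opposite Gbp2, had 0 counts in both libraries.

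TMM factors came from edgeR 4.0.16. Log2 ratios add 0.5 to each count, and intervals are exact binomial (Clopper-Pearson) for ratios and shares and exact Poisson for levels. They cover counting error only. A gene was measured at a mean of at least 1 CPM and counted beyond 2-fold when its whole 95% interval lay beyond it, a rule of size and not a test. Functions were tested on simulated data. The members, gene lists and tests were chosen with earlier results of these data known. Named genes were the 10 members, the 5 most alike in ratio, H19, and in every list the 3 most abundant measured genes and at most 3 beyond 2-fold; exceptions are stated, and 1 gene that the rule selects is not reported here and was left out of its list. Exon lengths and coding sequences came from GENCODE M21, promoter windows from RefSeq. Alternatives were other scalings (DESeq2 1.42.0 for median-of-ratios), added counts, minimums, limits and lengths. Computation used Python 3.11.15, scipy 1.17.1 and R 4.3.3.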

Additional observations from a re-analysis of the deposited data

How the results depend on the processing

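Under the 3 other scalings all 27 values of the 9 measured members kept a lower bound above 2-fold, and 9 members were counted. All 40 member values, including those with 5 added to each count, the 9 cluster and family sums and the 7 medians of the members (1 of them without Gbp10, added after seeing the data) kept their direction and moved by less than their counting interval, for a median that of its middle member. The 65 medians of the pathway and marker lists moved by less than that too, but the prenylation median, -0.00 in the report, was 0.01 under total count scaling. With a limit of 4-fold 3 members were counted: Gbp4, Gbp6 and Gbp10. Over all genes the 4-fold limit gave 16 higher and 7 lower, the 1.5-fold limit 251 and 168, and the point ratio 206 and 123, as a stricter or looser rule must; a minimum of 5 CPM gave 34 lower, since fewer genes were counted. An ISRE core with a gap of 1 or 2 bases was found in 6.27% of all windows and in the same 4 members' windows. With other lengths, also added after seeing the data, 2 to 4 members changed place in the order of levels. At 5 CPM the T and NK list had no measured gene, and neutrophil markers had none in the report. No paired analysis was possible because there was a single library of either genotype, and none could be left out. Depth limits Gbp10 and Gbp11, with 8 wild-type counts each.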
